A study of Mus musculus with 6 samples.

Results

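The genes T (Brachyury), Cdx2 and Msx2 are lineage genes that respond to bone morphogenetic protein (BMP), and the data on them are the SMAD1/5 peaks called within a 200 kb window around each. The windows are given on the mm9 build of the mouse genome, on chromosome 17 from 8530000 to 8730000 for T, on chromosome 5 from 148015000 to 148215000 for Cdx2 and on chromosome 13 from 53465000 to 53665000 for Msx2. A peak belonged to a window when it overlapped it by at least 1 bp, and 9 of the 24441 deposited peaks did so. SMAD1/5 binding was mapped by ChIP-seq with an anti-Smad1 antibody, and each condition was 1 library without a replicate. The conditions were epiblast stem cells derived from embryonic stem cells (ESD-EpiSCs, the primed pluripotent state) given 10 ng/ml BMP-4 for 24 h, the same cells given 10 ng/ml BMP-4 for 1.5 h, mouse E14 embryonic stem cells (ESCs, an established line in the naive state) kept in LIF+BMP-4 with BMP-4 at 10 ng/ml, and E14 ESCs kept in LIF+serum. The ESD-EpiSCs were maintained in N2B27 medium with FGF2 and Activin A on serum-coated plates. For LIF+BMP-4 the labels name more than 1 basal medium without saying which one the library came from. No ESD-EpiSC library without BMP-4 was analysed here, so cell state, culture medium, BMP-4 exposure and library cannot be told apart.

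BMP ligands bind receptor kinases at the cell surface, and these phosphorylate SMAD1 and SMAD5, which join SMAD4, enter the nucleus and bind DNA at GC-rich elements and at the GTCT box. In mouse ESCs, BMP-4 together with LIF supports self-renewal, whereas in primed cells BMP-4 drives differentiation towards mesoderm and extraembryonic fates. T encodes the T-box transcription factor of the primitive streak, posterior mesoderm and notochord. Cdx2 encodes a caudal-type homeodomain factor needed in the trophectoderm and later in the posterior body axis and the intestine. Msx2 encodes a homeodomain repressor that acts in neural crest, limb and skull development and is a known BMP target.

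The files hold peak calls and no reads, so the sequencing depth is unknown, and where no peak was called binding may still have been present. The lists held 133 peaks in ESD-EpiSCs at 24 h, 225 in ESD-EpiSCs at 1.5 h, 14696 in ESCs in LIF+BMP-4 and 9387 in ESCs in LIF+serum. The score of a peak is the authors' own value and was used only to order or filter peaks within its list. Its lowest value lay between 50.0 and 50.15 in all 4 lists. The median peak width was 102 bp in ESD-EpiSCs at 24 h and 123 bp at 1.5 h. In ESCs it was 500 bp in LIF+BMP-4 and 811 bp in LIF+serum. The ESD-EpiSC lists thus differed from the ESC lists in peak width as well as in length, and the reason was not tested. Chromosomes were divided into 12823 tiles of 200 kb, the size of the windows, to show how often a stretch of that length held a peak.

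The genome sequence of mm9 was not used here, so the bases under the peaks could not be read. The promoters of the 3 genes are shown instead, because the windows are named for these genes and because the letters that SMAD1/5 is known to bind can be looked for there. Each sequence runs from 250 bases before to 50 bases after the transcript start, 5′ to 3′ on the gene's strand, from RefSeq on the GRCm38.p6 build. The build differs from that of the peaks, so these positions cannot be set against peak positions, and whether a peak lies on a promoter was not determined. Capitals mark GGAGCC on either strand (read as GGCTCC where it lies on the other strand). GGCGCC was searched for in the same way and has no match in them.
T (chr17:8434173-8434472, plus strand): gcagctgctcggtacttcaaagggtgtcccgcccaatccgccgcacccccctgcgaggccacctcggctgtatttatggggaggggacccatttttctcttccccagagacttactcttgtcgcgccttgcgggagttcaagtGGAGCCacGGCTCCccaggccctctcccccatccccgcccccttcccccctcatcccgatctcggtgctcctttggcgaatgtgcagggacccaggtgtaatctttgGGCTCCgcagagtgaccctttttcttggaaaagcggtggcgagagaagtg
Cdx2 (chr5:147307200-147307499, minus strand): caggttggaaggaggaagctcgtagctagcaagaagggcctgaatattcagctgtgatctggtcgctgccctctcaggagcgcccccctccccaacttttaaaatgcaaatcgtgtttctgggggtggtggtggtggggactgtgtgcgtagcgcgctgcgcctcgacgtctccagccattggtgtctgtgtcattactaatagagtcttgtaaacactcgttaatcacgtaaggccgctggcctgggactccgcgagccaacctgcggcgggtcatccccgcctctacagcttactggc
Msx2 (chr13:53472731-53473030, minus strand): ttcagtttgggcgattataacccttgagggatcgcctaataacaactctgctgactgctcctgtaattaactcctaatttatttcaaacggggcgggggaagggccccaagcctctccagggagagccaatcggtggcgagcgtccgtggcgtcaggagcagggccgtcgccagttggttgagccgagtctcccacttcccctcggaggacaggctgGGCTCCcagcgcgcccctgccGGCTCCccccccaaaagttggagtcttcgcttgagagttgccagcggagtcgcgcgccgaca

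The T promoter held 3 matches to GGAGCC, the Msx2 promoter 2 and the Cdx2 promoter 0. Over the 32851 mouse promoters of the same table and length, 30.8% held GGAGCC on either strand, 11.9% held GGCGCC, and 37.1% held either. GGAGCC at least 3 times, a cutoff equal to the count at T, was held by 1.54%. No share was computed for at least 2 matches, the count at Msx2. The T matches begin 107 and 99 bases before the start and at base 1 after it, and the Msx2 matches begin 33 and 12 bases before the start. The short GTCT box, again on either strand, occurred 1 time at T, 3 times at Cdx2 and 2 times at Msx2. GTCT was present in 88.0% of all promoters, so its presence sets no gene apart. These matches describe letters and do not show a bound site.

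In ESD-EpiSCs no SMAD1/5 peak was called in the T, Cdx2 or Msx2 window at either time. The counts were 0 of 133 peaks at 24 h and 0 of 225 peaks at 1.5 h, against 6 of 14696 in ESCs in LIF+BMP-4 and 3 of 9387 in ESCs in LIF+serum. Of all 200 kb tiles, 0.881% held a peak at 24 h and 1.47% held one at 1.5 h, and 97.8% held no ESD-EpiSC peak at all. Nearly every tile was thus empty of ESD-EpiSC peaks, as the 3 windows were. Close to ESC binding, 4.17% of the 3935 tiles with a peak in both ESC lists held a peak at either ESD-EpiSC time.

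The nearest ESD-EpiSC peaks lay megabases away from each of the 3 windows. For T the nearest peak at 24 h began 30.0 Mb above the window edge, with no peak at lower coordinates of chromosome 17, and at 1.5 h the nearest peak lay 2.00 Mb below the edge. For Cdx2 the nearest peak lay 23.1 Mb below the edge at 24 h and 4.00 Mb below it at 1.5 h. For Msx2 these distances were 3.77 Mb at 24 h and 2.32 Mb at 1.5 h, both at lower coordinates. These chromosomes held few ESD-EpiSC calls in any case. Chromosome 17 held 3 peaks at 24 h and 13 at 1.5 h, chromosome 5 held 9 at 24 h and 14 at 1.5 h, and chromosome 13 held 5 at 24 h and 6 at 1.5 h.

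In ESCs the 3 windows differed in how many peaks they held and in whether LIF+BMP-4 and LIF+serum shared them. The T window held 3 peaks in LIF+BMP-4, against 2 in LIF+serum, the Cdx2 window 1 in LIF+BMP-4 against 0 in LIF+serum, and the Msx2 window 2 in LIF+BMP-4 against 1 in LIF+serum. All 3 LIF+serum peaks overlapped a LIF+BMP-4 peak (100%, exact Clopper-Pearson 95% interval 29.2 to 100), and 3 of the 6 LIF+BMP-4 peaks overlapped a LIF+serum peak (50.0%, 11.8 to 88.2). Over the whole lists 38.7% of LIF+BMP-4 peaks and 58.8% of LIF+serum peaks were shared, each within the interval of its windows. These intervals treat each peak as an independent draw and reflect only the small number of peaks counted in 1 library per medium. They do not show how sharing would vary between libraries. Both shares count the same 3 places from either side, so they are not separate results. The LIF+serum peaks of the windows were therefore a subset of the LIF+BMP-4 peaks, but their number is too small to place this apart from the lists at large. The longer LIF+BMP-4 list bears on these counts: with only its 9387 highest-scoring peaks, as many as LIF+serum held, LIF+BMP-4 had 1 peak against 2 in LIF+serum at T, 0 against 0 at Cdx2 and 2 against 1 at Msx2. The higher LIF+BMP-4 count thus turned round at T, was gone at Cdx2 and remained at Msx2, and 1 of the 3 LIF+serum peaks (33.3%) then had a counterpart.

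**Figure D1:**
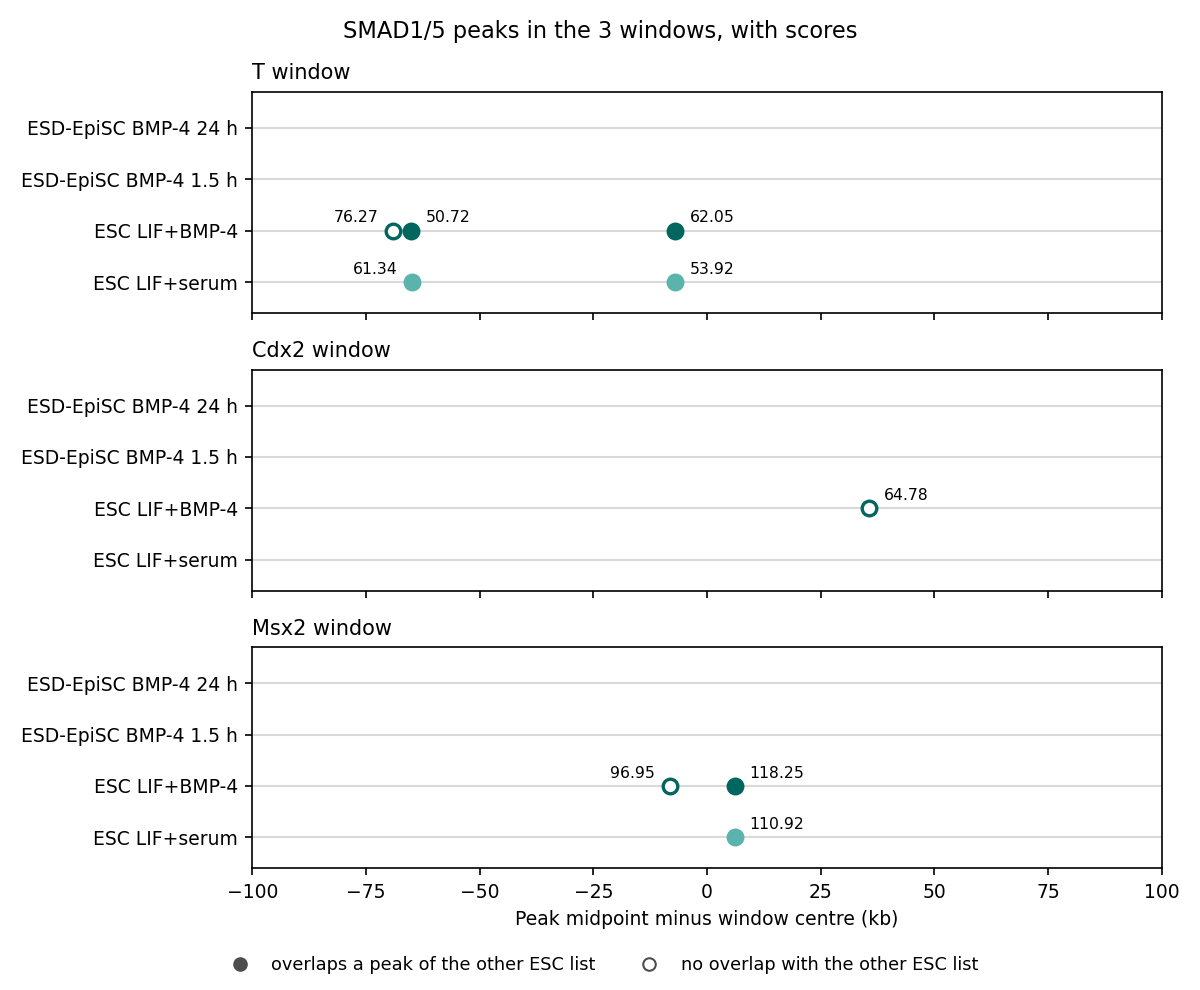
Position of every SMAD1/5 peak in the T, Cdx2 and Msx2 windows as the distance of its midpoint from the window centre (kb), 1 row per library, with the authors' score printed beside it. Filled points overlap a peak of the other ESC list and open points do not; the rows of both ESD-EpiSC libraries are empty, T has 2 positions with filled points in both ESC rows, Msx2 has 1, and Cdx2 has a single open point.

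Stretches as dense in ESC peaks as the 3 windows were common among all tiles. The tiles were not matched to the windows for gene content or mappability, so how common this is around genes was not determined. Of all 200 kb tiles, 45.5% held at least 1 LIF+BMP-4 peak and 35.3% at least 1 LIF+serum peak. At least 3 LIF+BMP-4 peaks, as at T, were found in 15.8% of tiles, and at least 2 LIF+serum peaks, as at T, in 17.6%. At least 2 LIF+BMP-4 peaks, as at Msx2, were found in 25.7% of tiles. The combination at Cdx2, exactly 1 LIF+BMP-4 peak and no LIF+serum peak, was found in 10.6% of tiles. This exact share cannot be set against the shares for at least a given number. For exactly the same number of LIF+BMP-4 peaks as the window, the shares were 5.88% for T, 9.97% for Msx2 and 19.7% for Cdx2. A peak in both ESC lists, as at T and Msx2, was found in 30.7% of tiles. At least 2 shared peaks, as at T, occurred in 10.3% of tiles by LIF+BMP-4 peaks and in 9.90% by LIF+serum peaks, and at least 1, as at Msx2, in 25.6% by either list.

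**Figure D2:**
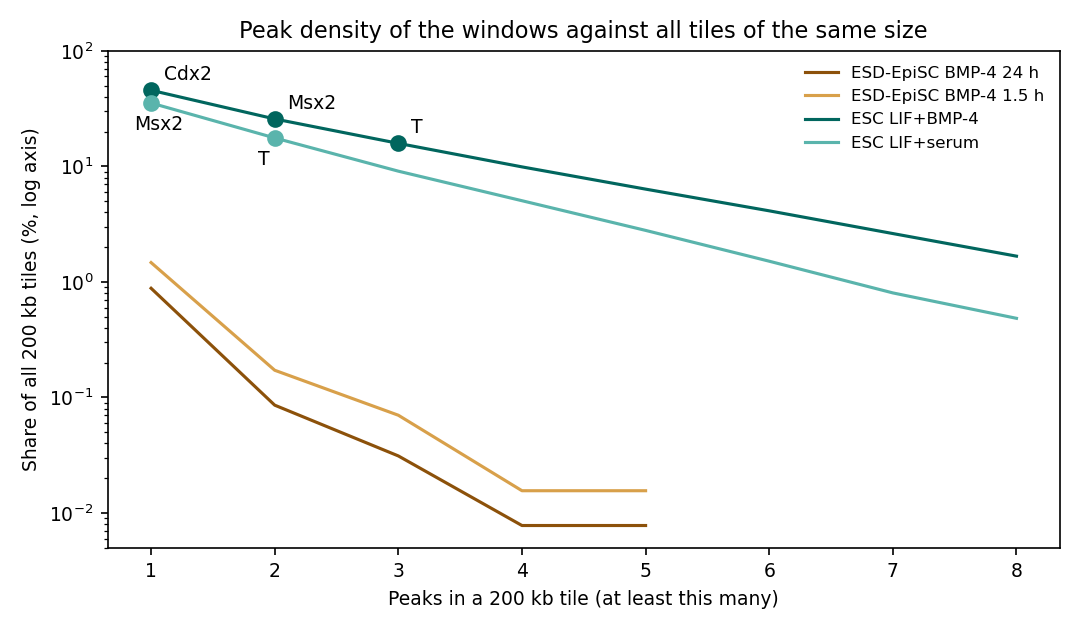
Share of all 12823 tiles of 200 kb (%, log axis) that held at least the number of peaks on the x axis, 1 line per library, with points at the number of peaks in the T, Cdx2 and Msx2 windows where the window held any. T is the farthest right of the windows, at 3 peaks in LIF+BMP-4 (15.8% of tiles), and the ESD-EpiSC lines start at 0.881% (24 h) and 1.47% (1.5 h) with no window on them.

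At T, the primitive streak gene, ESC peaks lay at 3 places, all at lower coordinates than the window centre, and none scored above the middle of its list. In LIF+BMP-4 the peaks on chromosome 17 (mm9) were at 8560745 to 8561058 with a score of 76.27, at 8564643 to 8565123 with a score of 50.72, and at 8622751 to 8623262 with a score of 62.05. In LIF+serum they were at 8564641 to 8565543 with a score of 61.34 and at 8622443 to 8623331 with a score of 53.92. The first 2 LIF+BMP-4 peaks formed a pair with midpoints 4.0 kb apart, and the last lay 58.1 kb further on. Within LIF+BMP-4 the 3 peaks ranked 7372, 14369 and 10295 of 14696, or at percentiles 49.8, 2.2 and 30.0 of the list. Within LIF+serum the 2 peaks ranked 6258 and 8089 of 9387, at percentiles 33.3 and 13.8. The highest score of a tile was at least that of the T window in 30.9% of tiles in LIF+BMP-4 and in 27.9% in LIF+serum. Outside the window, 92.3 kb below its edge, a LIF+BMP-4 peak at 8436885 to 8437667 scored higher than those inside it. Its score was 98.89 and its rank 4457 of 14696 (percentile 69.7), with no LIF+serum counterpart. In the GRCm38.p6 gene table the coding genes on either side of T are T2 at lower coordinates and Pde10a at higher ones, and their places on mm9 were not used.

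The 2 places that T had in both media stood in opposite order by score, but all their scores were low. In LIF+BMP-4 they were 50.72 and 62.05, where the list began at 50.0 and had a median of 76.38. In LIF+serum they were 61.34 and 53.92, where the list began at 50.01 and had a median of 70.45. The place 65.1 kb below the centre was the lowest-scoring T peak in LIF+BMP-4 and the highest-scoring T peak in LIF+serum. The place 7.0 kb below the centre scored above it in LIF+BMP-4 and below it in LIF+serum. Because the lists differ in length, the places were also ranked among the 5330 pairs in which 1 LIF+BMP-4 peak met exactly 1 LIF+serum peak and the reverse. Among these the first place stood at percentile 0.994 in LIF+BMP-4 against 23.1 in LIF+serum, and the second at 14.1 in LIF+BMP-4 against 8.97 in LIF+serum. The percentile in LIF+BMP-4 minus that in LIF+serum was -22.1 at the first place and 5.2 at the second. Differences of these sizes were common: 44.6% of pairs differed by at least as much as the first and 82.4% by at least as much as the second, and the median difference was 19.2 percentile points. Over those pairs, which share the cell line and differ in medium and library, Spearman's rho of the scores was 0.46. With 1 library per medium, no replicate spread exists against which the change of order could be tested.

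The peaks at the 2 shared T places were nested, with the LIF+BMP-4 peak lying wholly inside the wider LIF+serum peak. The overlap was 481 bp at the place 65.1 kb below the centre and 512 bp at the place 7.0 kb below it, which is 53.3% and 57.6% of the LIF+serum peaks. The midpoints lay 209 bp apart at the first place and 119.5 bp apart at the second, against a median of 70.5 bp over all 5330 pairs. Of those pairs, 9.55% had midpoints at least as far apart as at the first T place and 26.8% at least as far as at the second. The widths were 0.53 and 0.58 times those in LIF+serum, against a median of 0.67 over all pairs.

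The highest-scoring T peak in LIF+BMP-4, 69.1 kb below the centre, had no LIF+serum counterpart. It was 314 bp wide, the narrowest of the 9 peaks, and its midpoint lay 4.19 kb from that of the nearest LIF+serum peak. Among the 9013 LIF+BMP-4 peaks without a LIF+serum counterpart it stood at percentile 63.6. Per kb of width its percentile in the list was 85.7, and among peaks of the same width tertile 80.7, so its position within the list depends on how width is treated.

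At Cdx2, the trophectoderm and posterior axis gene, ESCs had a single peak, in LIF+BMP-4. It lay on chromosome 5 at 148150474 to 148150966 (mm9), 35.7 kb above the window centre, with a score of 64.78 and rank 9630 of 14696 (percentile 34.5). It stood alone, with the next LIF+BMP-4 peak 103.7 kb away, and 16.2% of LIF+BMP-4 peaks had their nearest neighbour at least as far away. The nearest LIF+serum peak was 184 kb away. In 36.1% of all 200 kb tiles the highest LIF+BMP-4 score was at least that of the Cdx2 window.

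Higher-scoring ESC peaks lay just outside the Cdx2 window, and the 400 kb window of T added 1 as well, in LIF+BMP-4. For Cdx2, a window of 400 kb with the same centre held 7 LIF+BMP-4 peaks and 1 LIF+serum peak. Of the 6 LIF+BMP-4 peaks so added, 5 lay below the window, from 169.9 to 138.2 kb below the centre, and 1 lay 139.5 kb above it. The highest of them, at 147976501 to 147977068, scored 160.53 and ranked 1549 of 14696, with no LIF+serum counterpart. The only place called in both media was at 147966926 to 147967542 in LIF+BMP-4 (score 120.62, rank 2989) and at 147966166 to 147967733 in LIF+serum (score 208.95, rank 351 of 9387). In the GRCm38.p6 gene table the coding genes next to Cdx2 at lower coordinates are Pdx1 and then Gsx1, and at higher coordinates Urad and then Flt3. Which of these genes lies nearest to those peaks on mm9 was not determined.

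At Msx2, the neural crest, limb and skull gene, ESCs had the highest-scoring peak of the 3 windows in each medium, at the same place. In LIF+BMP-4 it lay on chromosome 13 (mm9) at 53570782 to 53571503 with a score of 118.25 and rank 3101 of 14696 (percentile 78.9). In LIF+serum it lay at 53570759 to 53571405 with a score of 110.92 and rank 1694 of 9387 (percentile 82.0). These were the only peaks of the windows with a score of at least 100, which 29.7% of all LIF+BMP-4 peaks and 23.1% of all LIF+serum peaks reached. The highest LIF+BMP-4 score was at least as high in 17.3% of all tiles, and the highest LIF+serum score in 10.6%. By score per kb of width, the Msx2 peak fell below the highest T peak in LIF+BMP-4, at percentile 51.8 against 85.7. In LIF+serum it stayed above, at 92.4 against 14.5.

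The shared Msx2 peaks had closer midpoints than those at T. They overlapped by 624 bp, which is 86.4% of the LIF+BMP-4 peak and 96.4% of the LIF+serum peak, and their midpoints were 60.5 bp apart. Over all pairs 56.2% had midpoints at least that far apart. The LIF+BMP-4 peak was 1.12 times as wide as the LIF+serum peak, where the median pair had 0.67. Among the 5330 pairs alone, the Msx2 place stood at percentile 57.6 in LIF+BMP-4, against 73.5 in LIF+serum, above both T places in each medium. The difference was -15.8 points, and 56.4% of pairs differed by at least as much.

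A further Msx2 peak was called in LIF+BMP-4 alone, at 53556463 to 53557219, 8.2 kb below the window centre. It scored 96.95 and ranked 4644 of 14696 (percentile 68.4), and among LIF+BMP-4 peaks without a LIF+serum counterpart it stood at percentile 83.0. It lay 14.3 kb from the shared Msx2 peak, and 54.8% of LIF+BMP-4 peaks had their nearest neighbour at least that far away. In LIF+serum the shared peak had no other peak within 291.3 kb, a distance that 8.25% of LIF+serum peaks reached. At 757 bp the peak called in LIF+BMP-4 alone was the widest LIF+BMP-4 peak of the 3 windows. Per kb of width its percentile was 20.1, and among peaks of the same width tertile 36.2.

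**Figure D3:**
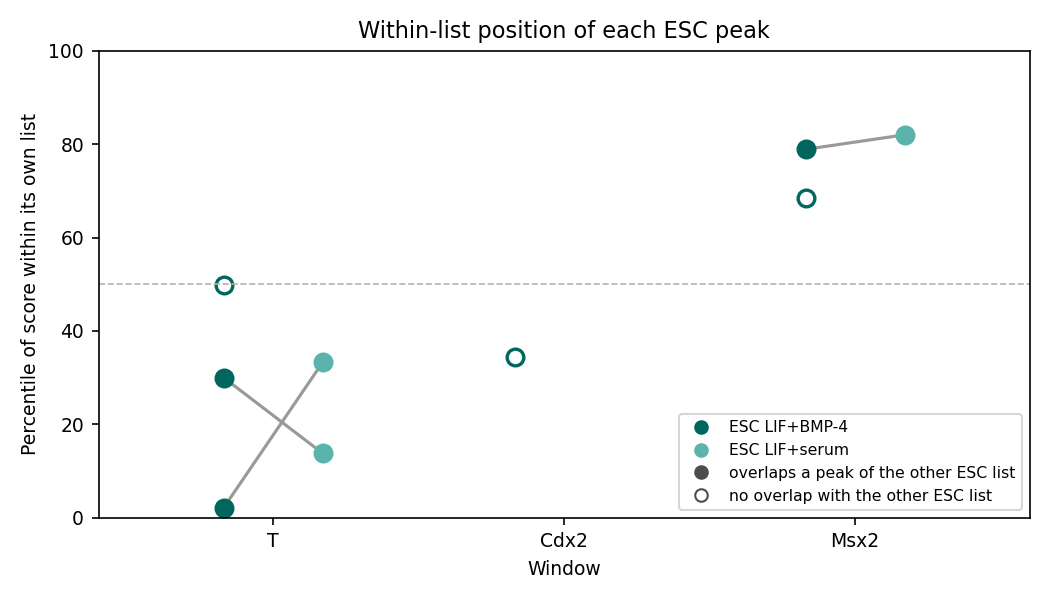
Percentile of the authors' score within its own list for each of the 9 ESC peaks, by window, with LIF+BMP-4 left of LIF+serum and grey lines joining peaks that overlap. The lines cross at T (2.2 and 33.3 at one place, 30.0 and 13.8 at the other), and Cdx2 has 1 unjoined point at 34.5; the lists differ in length, so the slope of a line is no measure of change (Msx2, at 78.9 and 82.0 here, stood at 57.6 and 73.5 among paired peaks), and the dashed line is the 50th percentile.

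The order of the windows by their highest peak was Msx2, T, Cdx2 in LIF+BMP-4, at percentiles 78.9, 49.8 and 34.5. In LIF+serum it was Msx2 and then T, at 82.0 and 33.3, and Cdx2 had no peak. By score per kb of width the LIF+BMP-4 order was T, Msx2, Cdx2, at percentiles 85.7, 51.8 and 22.6, while in LIF+serum Msx2 stayed ahead of T, at 92.4 and 14.5. In the lists as deposited T held the most peaks of the 200 kb windows in both media, but this order by number was lost under other settings. In LIF+BMP-4, T had 1 peak and Msx2 2 with ESC lists of equal length and again in the central 100 kb, T had 0 and Msx2 1 at a score of at least 100, and T had 4 and Cdx2 7 in 400 kb windows. In LIF+serum, T and Msx2 had 1 each in the central 100 kb, and T had 0 and Msx2 1 at a score of at least 100. The median width of the window peaks was 502.5 bp in LIF+BMP-4, where the whole list had 500 bp, and 889 bp in LIF+serum, where the whole list had 811 bp. Counting peaks within 1 kb of each other once changed no count of the 3 windows in either medium.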

How the data were processed

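SMAD1/5-bound chromatin was sequenced from 4 immunoprecipitated libraries, 1 per condition, and the labels also list 2 input libraries, which were not analysed here. Bowtie (1.1.0), MACS (1.4.2) and Picard are named by the submitters' processing notes, with mm9 as the build, and no step is assigned to any of them. The control of each list, the read filters and the depth are not stated there. The authors deposited 1 list per library with 5 columns (chromosome, start, end, name and score). The deposited score has no stated scale and was used only within its list. Positions are printed 1-based.

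The windows come from the rule for the 3 genes. Peaks were shared when they overlapped by at least 1 bp. Tiles of 200 kb ran from the first to the last peak of each chromosome over the 4 lists, and only full tiles were kept. Ranks run from the highest score, and a percentile is the share of the list scoring no higher. No test was possible with 1 library per condition, so no p-value is given. The members, windows and comparisons were chosen with earlier results of these data known, and the promoter search, the pairs and the distances between peaks were added after the data were seen. Every peak in a window is named. The alternatives tried were a score of at least 100, other window and tile sizes, midpoints, lists of equal length, merging within 1 kb, overlap of 50%, extension by 1 kb, and ranks adjusted for width. The peak sequence and mm9 gene positions were not analysed, since no mm9 genome was used. Python 3.11.15, numpy 2.4.6, pandas 2.3.3, scipy 1.17.1 and matplotlib 3.10.9 were used. The overlap count was tested on the LIF+serum list against a copy with its peaks moved, for finding the planted overlaps only. Tile counts were tested on simulated peaks.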

Additional observations from a re-analysis of the deposited data

How the results depend on the processing

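No paired analysis was possible because there is only 1 library of each condition. With a score of at least 100 the LIF+BMP-4 counts became 0 at T, 0 at Cdx2 and 1 at Msx2, the LIF+serum count at T became 0, and the shared part of the LIF+BMP-4 window peaks became 100% (1 of 1). The central 100 kb left 1 LIF+BMP-4 and 1 LIF+serum peak at T. A 400 kb window gave 7 LIF+BMP-4 peaks and 1 LIF+serum peak at Cdx2. ESC lists of equal length left 1 LIF+BMP-4 peak at T and 0 at Cdx2. With all 4 lists reduced to 133 peaks, every ESC count that was above 0 became 0: 0 at T and 0 at Msx2 in both media, and 0 at Cdx2 in LIF+BMP-4. The ESD-EpiSC counts, 0 throughout, could change only with the 400 kb window, which held 0 as well. Per kb of width, the highest peak of each window moved to percentile 85.7 (T), 22.6 (Cdx2) and 51.8 (Msx2) in LIF+BMP-4 and to 14.5 (T) and 92.4 (Msx2) in LIF+serum. Within width tertiles these were 80.7, 31.0 and 53.2 in LIF+BMP-4 and 31.4 and 95.6 in LIF+serum. Under both settings T stood above Msx2 in LIF+BMP-4, the opposite of the order by score. For tiles with a score of at least 100, the share with a peak was 0.0780% (24 h), 0.273% (1.5 h), 22.2% (LIF+BMP-4) and 13.1% (LIF+serum), and for tiles of 100 kb it was 0.452%, 0.752%, 30.4% and 22.4%; shifting the tiles by 100 kb left all 4 shares within their intervals. Of the 35 recomputed ESC counts that started above 0, 14 moved past 1.5 times. Of the 8 shares of shared peaks, 7 stayed within their intervals. These intervals, 11.8 to 88.2% in LIF+BMP-4 and 29.2 to 100% in LIF+serum, are too wide to show that sharing was stable. With ESC lists of equal length the LIF+serum share fell from 100% (3 of 3) to 33.3% (1 of 3) and still lay within its interval.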

Other observations

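A long stretch without a called ESC peak lay above T. Above the last T peak, the next peak on chromosome 17 was 1.15 Mb away in either medium. Of all distances between successive peaks of a chromosome, 2.77% were at least as long in the LIF+BMP-4 list and 5.36% in the LIF+serum list. These shares, and those given below for other stretches, count distances by number and do not weigh them by length. They therefore do not show how rarely a place on a chromosome lies in so long a stretch, which was not computed. The peaks that ended the stretch were a pair in both media, at 9772371 to 9773415 in LIF+BMP-4 (score 124.04, rank 2810) and at 9772281 to 9773418 in LIF+serum (score 104.5, rank 1973). Around Cdx2 the LIF+serum list had no peak over 455 kb, a length that 14.8% of its distances reached. Above the shared Msx2 peak the stretch was 397 kb in LIF+BMP-4, against 591 kb in LIF+serum, lengths reached by 10.8% of LIF+BMP-4 and 11.4% of LIF+serum distances. In the GRCm38.p6 gene table the coding gene next to T at higher coordinates is Pde10a, and the one next to Msx2 is Drd1, a dopamine receptor gene. The other distances from a window's outermost peaks to the next peak were 123 kb below T, 173 kb below and 103 kb above Cdx2 and 226 kb below Msx2 in LIF+BMP-4, and 466 kb below T and 290 kb below Msx2 in LIF+serum, lengths that 14.4% to 33.6% of distances reached. The stretch above T was chosen with its length known.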
